A study of Homo sapiens with 8 samples.

Results

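Nonsense-mediated mRNA decay (NMD) factors are the proteins that find an mRNA whose reading frame ends too early and hand it over for degradation. The genes described here are 9 that encode central factors, UPF1, UPF2, UPF3A, UPF3B, SMG1, SMG5, SMG6, SMG8 and SMG9. They were taken by symbol from the gene count files, which hold 57996 gene rows, and all 9 were found and passed the filter on low counts together with 16233 genes in all. HAP1 cells are an adherent human line with a nearly haploid genome that goes back to a chronic myelogenous leukaemia. The KO group was HAP1 carrying a BCDIN3D knockout, 1 clone named clone 11, and the WT group was HAP1 without it. BCDIN3D encodes a methyltransferase that modifies the end of histidine tRNA. Each group had 2 RNA-seq libraries of total RNA from cells grown for 48 h in IMDM with 10% serum, 1 labelled 6 May (replicate 1) and 1 labelled 9 May (replicate 2). With a single clone, a clone difference and an effect of the lost gene cannot be told apart. The label field that gives the genotype is named for shRNA status, while its value names a knockout clone.

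In NMD, the helicase UPF1 meets a terminating ribosome together with the release factors, and a downstream exon junction complex reaches it through UPF3 and UPF2. The kinase SMG1, held in check by SMG8 and SMG9, then phosphorylates UPF1. Phosphorylated UPF1 recruits the endonuclease SMG6, which cuts the mRNA, and SMG5, which helps to bring in deadenylation and decapping. Transcripts of several of these factors are known NMD targets themselves, so their levels are tied to the activity of the pathway in many cell lines.

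Of the 9 genes, 1 lies on the long arm of chromosome 1 (1q): SMG5 (chromosome 1, 156249224 to 156291516, GRCh38). The other 8 lie elsewhere, UPF1 and SMG9 on chromosome 19, SMG6 and SMG8 on chromosome 17, UPF2 on chromosome 10, UPF3A on chromosome 13, SMG1 on chromosome 16 and UPF3B on the X chromosome.

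The 250 bases before the annotated start of 3 of the genes are shown because they stand for the comparison made here: SMG5, which differed between the groups, UPF1, the central helicase, and SMG6, the nuclease that acts beside SMG5. They come from RefSeq (GRCh38.p14), are written on the strand of the gene and have each motif match in capitals. The windows are chr1:156291517-156291766 (minus strand) for SMG5, chr19:18831709-18831958 (plus strand) for UPF1 and chr17:2303786-2304035 (minus strand) for SMG6.
SMG5: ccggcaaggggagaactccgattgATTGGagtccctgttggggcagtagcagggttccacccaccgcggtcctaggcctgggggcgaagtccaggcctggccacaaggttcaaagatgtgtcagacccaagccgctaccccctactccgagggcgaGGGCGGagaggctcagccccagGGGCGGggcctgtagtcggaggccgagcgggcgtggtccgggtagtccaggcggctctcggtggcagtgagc
UPF1: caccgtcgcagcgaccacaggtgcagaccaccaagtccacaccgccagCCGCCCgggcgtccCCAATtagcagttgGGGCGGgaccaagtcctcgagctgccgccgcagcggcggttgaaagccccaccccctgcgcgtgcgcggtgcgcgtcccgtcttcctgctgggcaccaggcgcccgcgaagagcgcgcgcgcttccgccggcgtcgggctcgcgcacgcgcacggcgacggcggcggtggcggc
SMG6: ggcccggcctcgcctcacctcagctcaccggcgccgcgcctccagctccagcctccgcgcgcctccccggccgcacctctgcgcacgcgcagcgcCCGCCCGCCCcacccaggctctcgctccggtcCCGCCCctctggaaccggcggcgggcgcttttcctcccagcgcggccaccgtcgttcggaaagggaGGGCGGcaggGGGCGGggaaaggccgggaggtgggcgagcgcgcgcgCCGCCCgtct
The motifs searched, on both strands, were the GC box GGGCGG, the CCAAT box CCAAT, the TATA box TATAAA, the E box CACGTG, the cyclic AMP response element TGACGTCA, the ETS motif CCGGAAG and an NRF1 core GCATGCGC. The SMG5 and UPF1 windows each held 2 GC boxes and 1 CCAAT box. The SMG6 window held 6 GC boxes, of which a pair overlap, and no match to the other motifs. Matches of different motifs did not overlap in these windows. Of 35116 windows of this length in the RefSeq table, 42.6% held a GC box, 32.0% a CCAAT box, 10.7% a TATA box, 6.34% an E box, 1.65% a TGACGTCA, 8.52% an ETS motif and 2.63% an NRF1 core. The GC content was 68.0% for SMG5, 75.6% for UPF1 and 79.6% for SMG6, against a median of 58.0% over all windows.

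The RNA-seq libraries held 20065041 to 24415272 counts. Levels are given as CPM, counts scaled to a common library total with TMM factors. Transcript lengths were not used, so levels, sums over genes and ratios between genes are compared between libraries only. BCDIN3D itself stood at 1.56 and 2.71 CPM in the KO libraries, against 7.40 and 4.90 CPM in the WT libraries. Markers set for the HAP1 line (BCR, ABL1, VIM, LIN28B and HMGA2) were all counted, with summed levels of 575 and 544 CPM in KO and 514 and 501 CPM in WT. Most of this was VIM, at 336 and 311 CPM in KO and 272 and 262 CPM in WT. LIN28B was lower in KO (120 and 115 CPM) than in WT (125 and 123 CPM), and BCR, ABL1 and HMGA2 overlapped. Of 7 blood cell markers, KIT alone passed the filter, and PTPRC, SPI1, GATA1 and CD34 had 0 to 5 counts in any library. The summed level of the 7 was 0.946 and 1.61 CPM in KO and 11.0 and 11.7 CPM in WT, nearly all of it KIT. Epithelial markers (4 genes) summed to 58.2 and 50.1 CPM in KO and 77.7 and 69.2 CPM in WT, with CDH1 at 0 or 1 count. Most of this was KRT18, at 50.7 and 41.6 CPM in KO and 58.9 and 53.1 CPM in WT. KRT8 had 7.33 and 8.30 CPM in KO and 17.9 and 15.2 CPM in WT. EPCAM had 0.189 and 0.151 CPM in KO and 0.865 and 0.850 CPM in WT. Fibroblast markers (4 genes) summed to 7.61 and 8.55 CPM in KO and 8.03 and 9.68 CPM in WT, with DCN at 0 in all 4 libraries. The part of these shifts in the results below was not tested.

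SMG5 was the member that differed between the groups. Its level was 178 and 202 CPM in the KO libraries, against 255 and 249.8 CPM in the WT libraries. Both KO libraries lay below both WT libraries, and the gap between the groups was wider than the spread within either. The means were 190 ± 16.9 CPM in KO and 253 ± 3.88 CPM in WT (SD, n = 2 each). The log2 fold change of KO over WT was -0.41 ± 0.06 (SE), a level 24.9% lower in KO. Its 95% interval ran from -0.54 to -0.29, and the adjusted p was 2.51e-06 with edgeR's quasi-likelihood test and Benjamini-Hochberg adjustment over all 16233 genes. The log2 difference was -0.52 between the replicate 1 libraries and -0.31 between the replicate 2 libraries. In cells measured in bulk, fewer expressing cells and less RNA per cell cannot be told apart.

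Among the 9 genes, 0 were called higher and 1, SMG5, was called lower. Over all tested genes 6.56% were called, 3.06% higher and 3.5% lower. Without adjustment, p fell under 0.05 for 0 members that were higher and 2 that were lower, SMG5 and SMG1. Over all tested genes 8.39% were higher and 8.31% lower by that measure. DESeq2 called 0 members higher and 1 lower, beside 1.57% and 2.04% of all tested genes. The median log2 fold change of the 9 was -0.02, beside 0.00 over all tested genes. In the 5 alternatives that keep all 4 libraries SMG5 was called, with log2 fold changes between -0.44 and -0.41 and adjusted p between 1.94e-09 and 4.26e-06. In the 4 that leave out a library it was called as well (-0.51 to -0.32, adjusted p 4.17e-11 to 2.17e-04). There 1 group has a single library, which is assumed to vary like the other group, so the spread within its own group is not measured. That limit holds for each value given without a library.

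**Figure D1:**
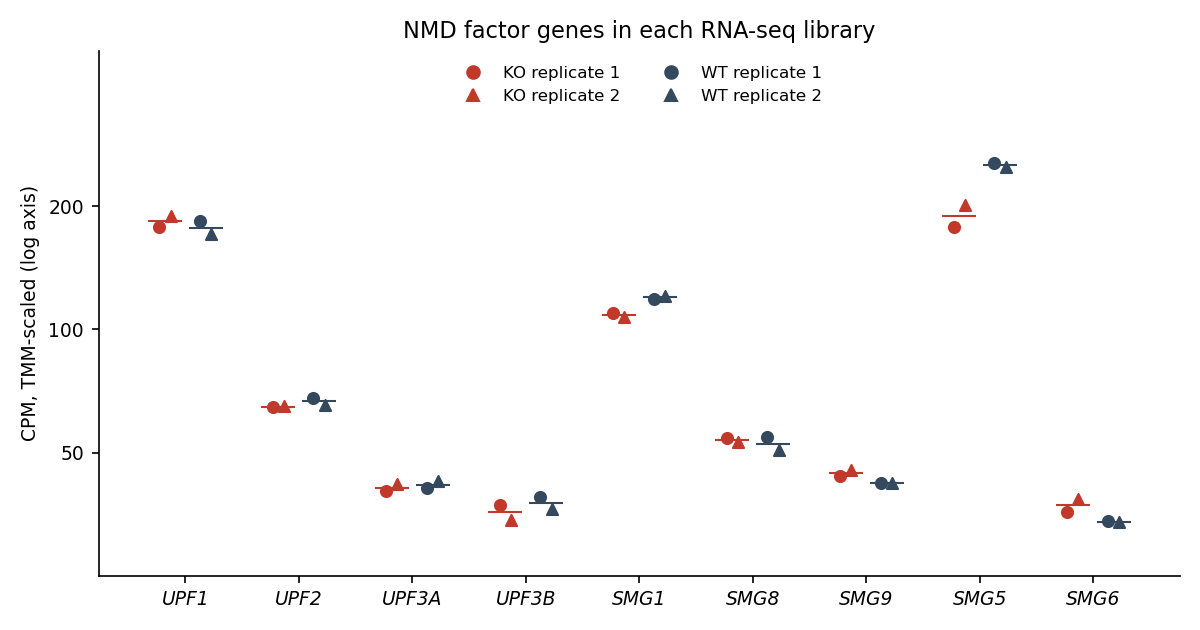
CPM (TMM-scaled, log axis) of the 9 NMD members in each library, KO in red left of WT in blue, with circles for replicate 1, triangles for replicate 2 and bars for group means. SMG5 sits at 178 and 202 CPM in KO, below its 255 and 249.8 CPM in WT, while most other genes show groups that touch or lie close together.

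UPF1, the helicase on which the pathway turns, had 178 and 189 CPM in the KO libraries, against 184 and 171 CPM in the WT libraries. The groups overlapped and the log2 fold change was 0.05 ± 0.06 (SE, adjusted p = 0.781). Its 95% interval, -0.08 to 0.18, leaves room for changes up to those sizes. UPF2, the bridge between UPF1 and UPF3, had 64.6 and 64.9 CPM in KO and 68.0 and 65.3 CPM in WT. The KO libraries lay just below the WT libraries, with a log2 fold change of -0.04 ± 0.08 (interval -0.20 to 0.11, adjusted p = 0.872).

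UPF3A and UPF3B are paralogues that connect the exon junction complex to UPF2, of which UPF3B is the stronger activator and UPF3A is held at low protein level where UPF3B is present. UPF3A had 40.3 and 41.8 CPM in KO and 40.9 and 42.5 CPM in WT. Its groups overlapped, with a log2 fold change of -0.02 ± 0.09 (interval -0.20 to 0.15, adjusted p = 0.947). UPF3B had 37.3 and 34.3 CPM in KO and 38.8 and 36.4 CPM in WT. These groups overlapped too, with a log2 fold change of -0.07 ± 0.09 (interval -0.25 to 0.11, adjusted p = 0.791). The ratio of UPF3A to UPF3B counts was 1.08 and 1.22 in KO and 1.05 and 1.17 in WT, so it varied more between the replicates than between the groups.

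The kinase gene SMG1 had 109.5 and 107 CPM in the KO libraries, against 119 and 121 CPM in the WT libraries. The groups did not overlap, and the log2 fold change of -0.14 ± 0.07 missed the threshold (adjusted p = 0.247), although the unadjusted 95% interval, -0.28 to -0.01, lay below 0. SMG1 has partial copies on chromosome 16, and the value is uncertain where reads fit both. The 7 annotated copies SMG1P1 to SMG1P7 together had 469 and 492 counts in KO and 550 and 634 counts in WT. These sums were 20.3% and 23.0% of the SMG1 count in KO and 22.3% and 21.2% of it in WT, so the share of the copies overlapped between the groups. Of the 7 copies 0 were called in either direction by edgeR or DESeq2, and 0 had an unadjusted p under 0.05. Those of smallest p were SMG1P4, at 0.520 and 0.503 CPM in KO and 0.192 and 0.324 CPM in WT, and SMG1P7, at 6.81 and 7.64 CPM in KO and 8.65 and 8.18 CPM in WT.

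SMG8 and SMG9 encode the pair that binds SMG1 and restrains its kinase activity. SMG8 had 54.3 and 53.0 CPM in KO and 54.5 and 50.6 CPM in WT, with overlapping groups and a log2 fold change of 0.03 ± 0.08 (interval -0.13 to 0.19, adjusted p = 0.916). SMG9 had 43.7 and 45.4 CPM in KO, against 42.06 and 42.08 CPM in WT. Its KO libraries lay above the WT libraries by a small step, and the log2 fold change of 0.08 ± 0.08 missed the threshold (interval -0.09 to 0.25, adjusted p = 0.721). SMG8 and SMG9 counts stood in a ratio of 1.24 and 1.17 in KO and 1.30 and 1.20 in WT.

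SMG6, the endonuclease, had 35.8 and 38.6 CPM in the KO libraries, against 34.0 and 33.8 CPM in the WT libraries. Both KO libraries were above both WT libraries, but the log2 fold change of 0.13 ± 0.09 missed the threshold (interval -0.05 to 0.32, adjusted p = 0.510). The interval of SMG5 met that of no other member, SMG6 included. SMG1 came closest, with a lower bound of -0.277 against the SMG5 upper bound of -0.287. SMG5 counts per SMG6 count were 4.96 and 5.23 in KO, against 7.51 and 7.40 in WT, and SMG5 counts per UPF1 count were 1.001 and 1.06 in KO, against 1.39 and 1.46 in WT. Both ratios were lower in every KO library than in any WT library. They share the SMG5 counts and so restate its difference without adding separate support. The ratios are given as a description with no test, and the smallest two-sided p of an exact permutation test of 2 against 2 libraries is 0.333. The annotation of SMG6 overlaps that of HIC1 over 3403 bases and that of SRR over 408 bases, so its reads there cannot be assigned with certainty. HIC1 had 101 and 79 counts in KO and 110 and 127 counts in WT, and SRR had 202 and 220 counts in KO and 212 and 258 counts in WT.

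Of the 9 members, 3 had both KO libraries below both WT libraries, 2 had them above and 4 overlapped. Over all tested genes 21.8% lay below in this sense and 23.5% above, 45.3% in all, so such a split was common among 4 libraries. The sign of the KO and WT difference was the same at both dates for 7 of the 9, beside 63.4% of all tested genes. UPF1 and SMG8 were the exceptions, at -0.05 and -0.004 between the replicate 1 libraries and 0.15 and 0.07 between the replicate 2 libraries. The CPM summed over the 8 members other than SMG5 was 563 and 575 in KO and 581 and 562 in WT.

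**Figure D2:**
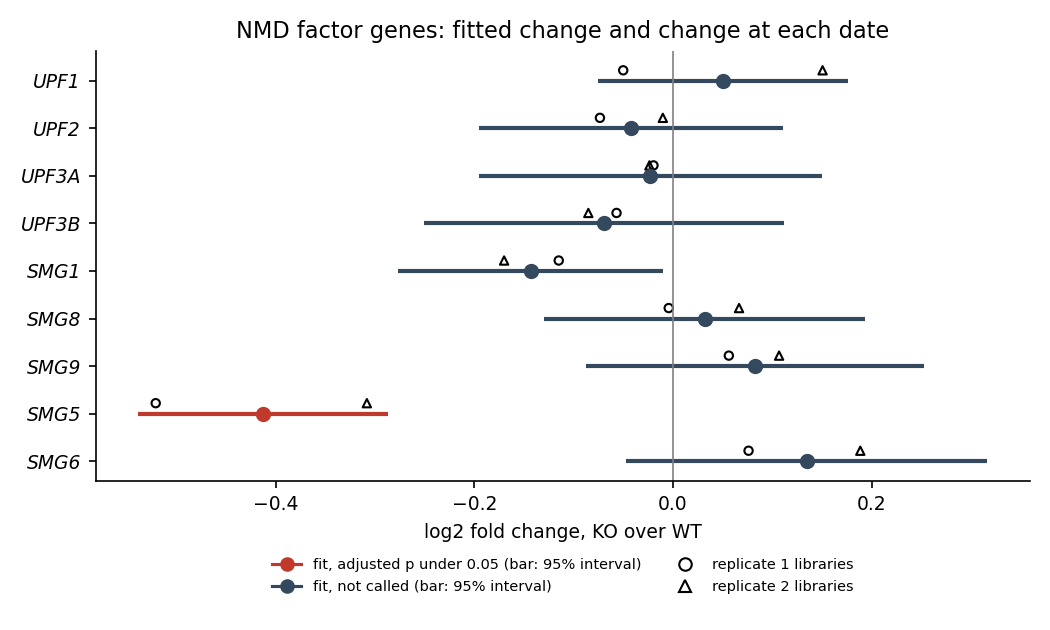
Log2 fold change of KO over WT for the 9 NMD members, with filled points and 95% interval bars from the fit (red where called) and open symbols for the difference between the libraries of each replicate number. SMG5 (-0.41) lies left of 0 with an interval of -0.54 to -0.29, and the 8 other members lie between -0.14 and 0.13.

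Most genes of 1q had slightly lower values in KO. The median log2 fold change of the 612 tested 1q genes was -0.09, against 0.01 for the 838 tested genes of the short arm and 0.01 for tested genes of the other chromosomes. It was -0.08 between the replicate 1 libraries and -0.11 between the replicate 2 libraries. Of the 1q genes 57 were called lower (9.31%) and 8 higher (1.31%), and 442 (72.2%) had a negative log2 fold change.

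SMG5 was lower than the arm by a further 0.32 on the log2 scale. Of the 612 genes, 59 (9.64%) had a log2 fold change below that of SMG5. Of these 59 genes 55 (93.2%) had a mean under 10 CPM over both groups, beside 32.0% of the 612. Among the 101 tested 1q genes with a mean of at least 100 CPM over both groups, a limit set after the values were seen, 19 were called lower. In all 612 genes 57 (9.31%) were called lower. Equally abundant genes elsewhere were not counted, so the 19 give no measure of the arm. Of the 101 genes 1 lay below SMG5. That gene was SOAT1, which encodes a cholesterol-esterifying enzyme, at 174 and 161 CPM in KO and 224 and 231 CPM in WT (log2 fold change -0.44 ± 0.06, adjusted p = 3.77e-07).

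The 40 tested genes around SMG5, 20 on each side, had a median log2 fold change of -0.09, with 6 called lower and 0 higher at the edgeR threshold. Over all tested 1q genes 9.31% were called lower and 1.31% higher. Of the 4 nearest, 2 on each side, 3 had a positive log2 fold change and 1, TMEM79, a negative one. PMF1, a kinetochore gene, had 55.7 and 59.5 CPM in KO and 47.7 and 52.2 CPM in WT (log2 fold change 0.20 ± 0.08, adjusted p = 0.150). PAQR6 stood at 1.56 and 1.91 CPM in KO and 1.59 and 1.26 CPM in WT (0.29 ± 0.32, adjusted p = 0.742). C1orf85 stood at 0.568 and 0.654 CPM in KO and 0.625 and 0.486 CPM in WT (0.14 ± 0.49, adjusted p = 0.942). Both had low levels and overlapping groups, so the sign of their change is uncertain. TMEM79, whose annotation overlaps that of SMG5 over 8585 bases, had 87 and 79 counts in KO and 122 and 109 counts in WT, far fewer than the 3759 and 4011 counts of SMG5 in KO and its 5312 and 6169 counts in WT. In CPM both KO libraries of TMEM79 lay below both WT libraries, and its log2 fold change was -0.34 ± 0.20 (adjusted p = 0.444). The strand setting of the counting is not given, so reads of the shared stretch cannot be assigned with certainty.

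**Figure D3:**
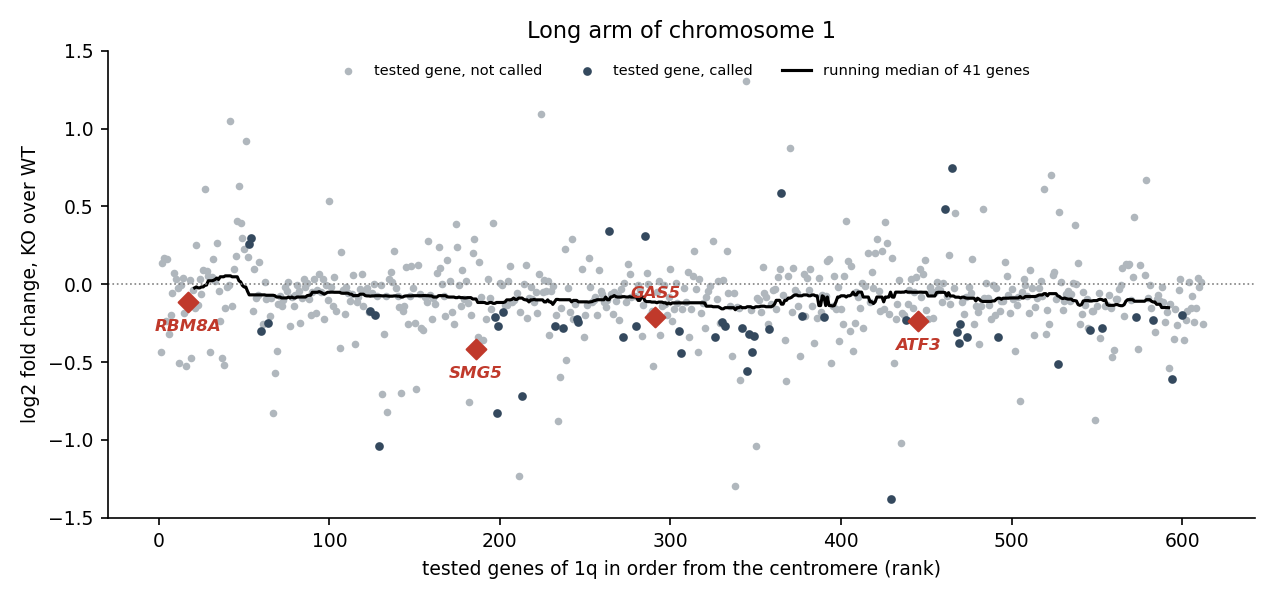
Log2 fold change of KO over WT for tested 1q genes in their order from the centromere, with called genes in dark blue, a running median of 41 genes as a black line and genes of the pathway as red diamonds. The running median stays near the arm's median of -0.09 over most of the arm, SMG5 lies well below it, and 13 genes outside ±1.5 are not drawn.

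The rest of the pathway was described by 8 further lists, 120 tested genes of 121 once the SMG1 copies are set aside. Of these 2 were called higher and 2 lower (1.67% each, against 3.06% and 3.5% of all tested genes), and the median log2 fold change was 0.00. With the replicate number as a block 2 were higher and 8 lower, beside 4.72% and 4.83% of all tested genes. DESeq2 called 0 in either direction. On 1q lie 3 of the 121: the exon junction gene RBM8A and the NMD targets ATF3 and GAS5. Of these 1, GAS5, was called lower and all 3 had a negative log2 fold change. Of the 117 tested genes elsewhere 2 were called higher and 1 lower.

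Among 9 other NMD factors, 1 was higher, MOV10, and 0 were lower, beside 3.06% and 3.5% of all tested genes. Where p under 0.05 was taken without adjustment, 2 were higher and 0 lower, beside 8.39% and 8.31% of all tested genes. MOV10, an RNA helicase that associates with UPF1, lies on the short arm of chromosome 1 and had 138 and 144 CPM in KO, against 119.9 and 122 CPM in WT. Its log2 fold change was 0.22 ± 0.06 (adjusted p = 0.0245). That call was lost with DESeq2 (adjusted p = 0.0913), with library totals only (adjusted p = 0.0586), and without WT replicate 1, WT replicate 2 or KO replicate 2, and the adjusted p ran from 0.00461 to 0.306 over the reported fit and its 9 alternatives. The other 8, among them the helicase gene DHX34 and the AAA ATPase genes RUVBL1 and RUVBL2, missed the threshold.

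The exon junction complex marks spliced mRNAs upstream of each junction and can make a stop codon before it look premature. Of its 10 genes 0 were called higher and 0 lower by edgeR or by DESeq2. Lower at an unadjusted p under 0.05 were 2, MAGOH and PNN, beside 8.31% of all tested genes. MAGOH, a core subunit, had 41.6 and 35.4 CPM in KO and 43.9 and 44.9 CPM in WT (log2 fold change -0.20 ± 0.09, adjusted p = 0.205), and it passed the threshold only with KO replicate 2 as the single KO library (adjusted p = 0.0265 without KO replicate 1). PNN, a peripheral component, had 147 and 128 CPM in KO and 167 and 143 CPM in WT (-0.17 ± 0.07, adjusted p = 0.203). It was lower with the replicate block (blocked adjusted p = 0.0296) and with KO replicate 2 as the single KO library (adjusted p = 0.00674 without KO replicate 1). RBM8A, the 1q member, had 118.8 and 120.2 CPM in KO and 134 and 124 CPM in WT (-0.11 ± 0.07, adjusted p = 0.422).

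Of 11 tested genes for translation termination and for cap or tail binding 0 were higher and 1 was lower. This was PABPC1, the cytoplasmic poly(A)-binding protein, which opposes NMD when it sits close to the stop codon. It had 429 and 419 CPM in KO, against 473 and 486 CPM in WT (log2 fold change -0.18 ± 0.06, adjusted p = 0.0437). The call was lost with DESeq2 (adjusted p = 0.0701), with no low-count filter (adjusted p = 0.0539) and without WT replicate 1, WT replicate 2 or KO replicate 2, with adjusted p from 0.00631 to 0.466 over the fits. With the replicate block EIF3E, a subunit of the initiation factor eIF3 and chosen after its values were seen, was lower as well (blocked adjusted p = 0.0192). GSPT2, an intronless copy of the release factor gene GSPT1, had 0 or 1 count per library and was not tested.

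Of 32 genes for decapping, deadenylation and exonucleases, the enzymes that finish the mRNA, 0 were called in either direction by edgeR or DESeq2. At an unadjusted p under 0.05, 0 were higher and 3 lower, beside 8.39% and 8.31% of all tested genes. The smallest p values belonged to the decapping enhancer gene EDC3, at 52.1 and 44.0 CPM in KO and 57.5 and 54.9 CPM in WT (log2 fold change -0.22 ± 0.08, adjusted p = 0.117), and to the deadenylase gene CNOT7, at 204 and 195 CPM in KO and 228 and 212 CPM in WT (-0.14 ± 0.06, adjusted p = 0.225). EDC3 was lower with the replicate block (blocked adjusted p = 0.0311) and with KO replicate 2 as the single KO library (adjusted p = 0.00671 without KO replicate 1).

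Transcripts that have been reported as NMD targets were taken in 3 lists. Of 15 genes of the stress and amino acid response 0 were called in either direction by edgeR or DESeq2, with a median of -0.06. In this list 10 of 15 lay below 0, beside 49.6% of all tested genes. Where p under 0.05 was taken without adjustment, 1 was higher and 0 lower, beside 8.39% and 8.31% of all tested genes. The stress-inducible gene GADD45B had 9.13 and 8.20 CPM in KO and 7.07 and 6.12 CPM in WT, and its log2 fold change of 0.40 ± 0.16 missed the threshold (adjusted p = 0.169). ATF3, a stress-induced transcription factor gene on 1q, had 13.1 and 10.6 CPM in KO and 14.9 and 13.0 CPM in WT (-0.23 ± 0.14, adjusted p = 0.416).

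Among 11 noncoding host and pseudogene transcripts 0 were higher and 1 was lower, beside 3.06% and 3.5% of all tested genes. DESeq2 called 0 in either direction. The list's median was -0.14 with 10 of 11 below 0, beside 49.6% of all tested genes. Without adjustment 0 were higher and 5 lower at p under 0.05, beside 8.39% and 8.31% of all tested genes. The called one was GAS5, a noncoding host of small nucleolar RNAs whose spliced RNA is degraded by NMD, on 1q. It had 288 and 265 CPM in KO, against 329 and 310 CPM in WT, with no overlap (log2 fold change -0.21 ± 0.06, adjusted p = 0.0197). The call was lost with DESeq2 (adjusted p = 0.0595), without WT replicate 1 (adjusted p = 0.419), without WT replicate 2 (adjusted p = 0.0822) and without KO replicate 2 (adjusted p = 0.257). The fits gave adjusted p from 0.00103 to 0.419.

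Of 24 genes for RNA-binding and ribosomal proteins that carry poison exons or similar NMD-prone isoforms, 1 was higher (4.17%) and 0 lower. Over all tested genes 3.06% were called higher and 3.5% lower. The list's median was 0.02. Before adjustment, p lay below 0.05 for 2 genes in each direction. The shares of all tested genes by that measure were 8.39% and 8.31%. The called gene was SNRPB, a core spliceosomal protein gene, at 430 and 455 CPM in KO and 389.0 and 392.3 CPM in WT (log2 fold change 0.18 ± 0.06, adjusted p = 0.0422). It lost the call under 7 of the alternatives, including RLE scaling (adjusted p = 0.0502), library totals only, DESeq2 (adjusted p = 0.119), no low-count filter (adjusted p = 0.0507) and without WT replicate 1, WT replicate 2 or KO replicate 2, with adjusted p from 0.00577 to 0.405 over the fits. With the replicate block HNRNPA2B1 (blocked adjusted p = 0.00233) and HNRNPD (blocked adjusted p = 0.0420), named here because of their values, were lower. Counts per gene do not separate the NMD-prone isoform from the others, so this list measures whole genes. Summed over the 3 lists of reported targets, the level was 13145 and 12799 CPM in KO and 13067 and 12786 CPM in WT, and the groups overlapped. Abundant genes weigh most in this sum. RPL3, named for its level, alone had 1946 and 1948 CPM in KO and 1783 and 1848 CPM in WT. The sum therefore says little about the less abundant targets.

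**Figure D4:**
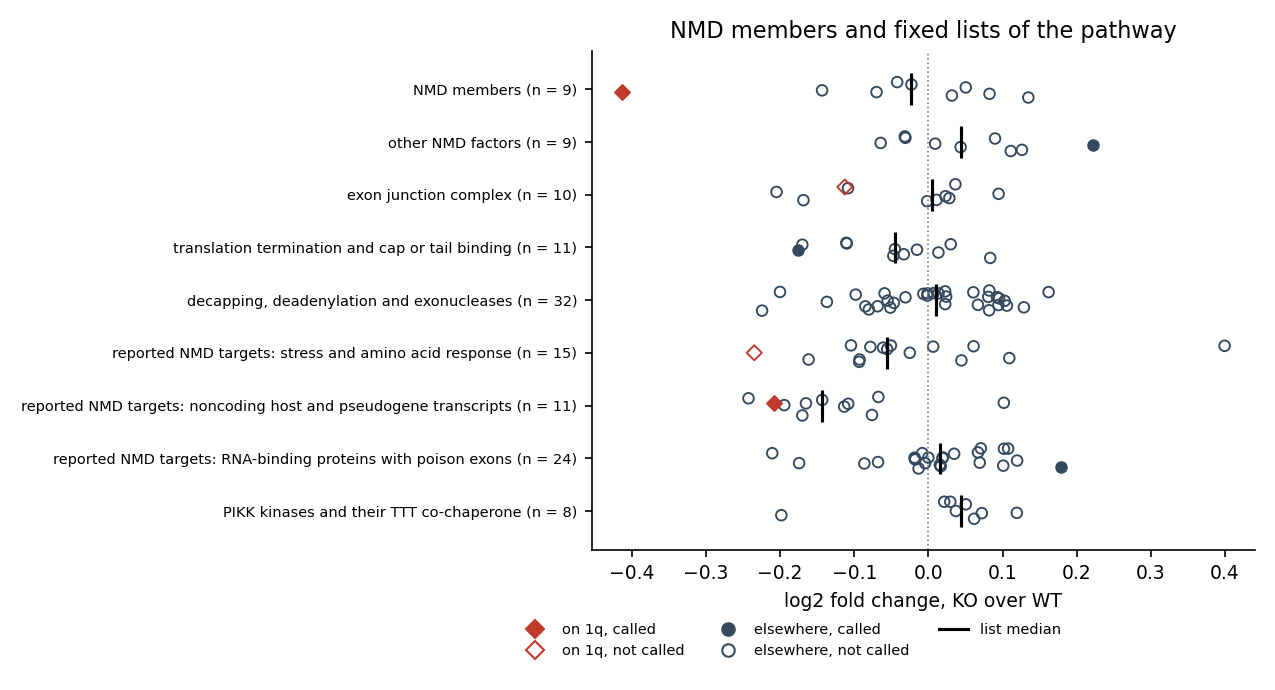
Log2 fold change of KO over WT for each tested gene of the NMD members and 8 fixed lists, with diamonds for 1q genes, circles for genes elsewhere, filled symbols for called genes and a black bar at each list's median. SMG5 (-0.41) is the lowest point of the plot, and every list's median lies between -0.14 and 0.04.

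SMG5 kept its call in each fit, whereas GAS5, also on 1q, lost its call without some of the libraries. Without KO replicate 1, the KO library in which SMG5 was lowest, its log2 fold change was -0.32, and without KO replicate 2 it was -0.51. Removing a WT library moved it less, to -0.40 without replicate 1 and -0.43 without replicate 2.

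**Figure D5:**
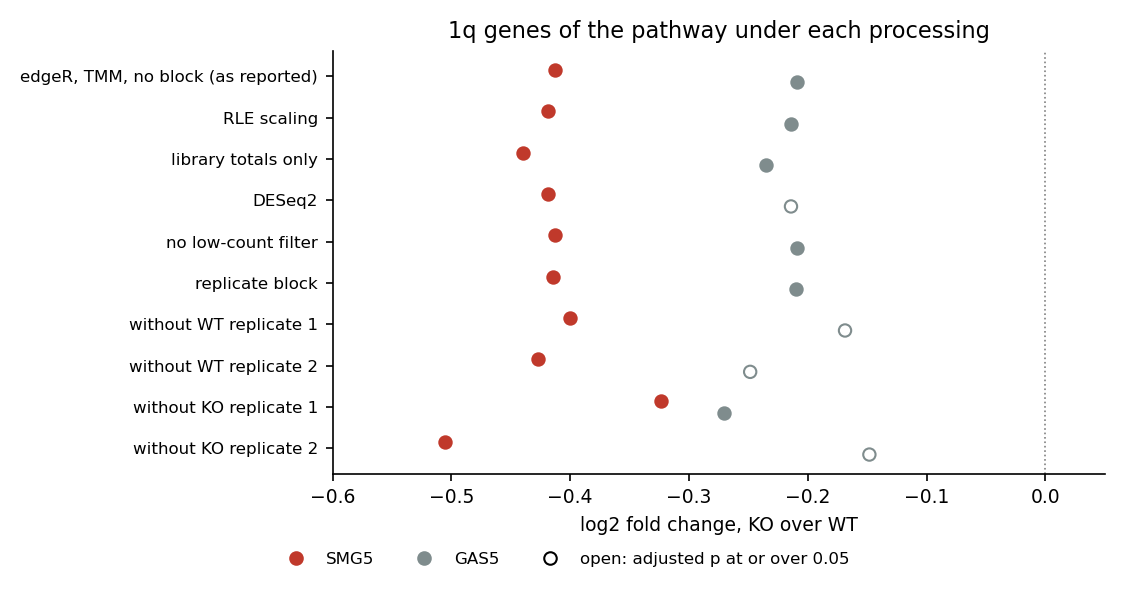
Log2 fold change of SMG5 and GAS5, KO over WT, in the reported fit and 9 alternatives, with filled points for an adjusted p under 0.05 and open points otherwise. All SMG5 points are filled, between -0.51 and -0.32, while GAS5 is open with DESeq2 and without some of the libraries.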

How the data were processed

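RNA-seq libraries of 2 KO and 2 WT samples were analysed, from raw counts per gene symbol that the authors deposited as 1 file per library. Per the submitters' processing notes the tools were FastQC, cutadapt, STAR, SAMtools, featureCounts and Subread with hg38. Versions, annotation and strand setting were not given in the sources used here. The kit was a stranded total RNA kit, per the labels' protocols. The 4 small RNA files were not used here.

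Counts were fitted in R 4.3.3 with edgeR 4.0.16 (filterByExpr with a minimum count of 10, TMM, robust quasi-likelihood F test, KO over WT, no block), and p-values were adjusted by Benjamini-Hochberg over 16233 genes with a threshold of 0.05. The biological coefficient of variation was 5.53%. A standard error is the log2 fold change divided by the square root of F, and intervals use the t distribution of the fit. Differences per date use log2(CPM + 0.5). Alternatives were RLE scaling, library totals, DESeq2 1.42.0, no low-count filter, the replicate number as a block and leaving out each library. The script was tested on simulated data.

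Replicate numbers follow the dates in the labels, which KO and WT share and which therefore pair the samples. The design text states no block, so the reported fit used none, and the replicate block is given as an alternative. Deviations of same-dated libraries from their group means correlated at 0.118 across genes. Replicates differed by more than sampling noise (chi-square per degree of freedom 5.21 in KO and 4.28 in WT). The design text calls them biological replicates. Nothing says that they came from separate thaws, and p-values therefore cover only the spread among these libraries, part of which may be technical.

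Positions came from RefSeq (GRCh38.p14) by symbol or unambiguous synonym, for 14223 tested genes (87.6%). 1q was taken as everything beyond the largest gene-free gap of chromosome 1. Of 137 listed genes all were in the files, 2 under an older symbol. Members and lists were chosen with earlier results of these data known. Named were the 9 members and BCDIN3D, of each list up to 4 called genes each way or the 2 of smallest p, the 2 tested neighbours on each side of SMG5, and the 3 genes closest in pattern to SMG5 and UPF1. SOAT1, RBM8A, RPL3, DHX34, RUVBL1, RUVBL2, GSPT2, EIF3E, HNRNPA2B1 and HNRNPD were named outside that rule, after their values were seen. HIC1 and SRR, also outside it, were named for their overlap with SMG6. Another gene of the design is not reported here.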

Additional observations from a re-analysis of the deposited data

How the results depend on the processing

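All 9 alternatives left 0 members called higher and 1 called lower. The 8 members other than SMG5 stayed uncalled in each. The sign of UPF1 and SMG8 changed without WT replicate 2, and that of UPF3A without WT replicate 2 and without KO replicate 1. Over all tested genes 497 were called higher and 568 lower. DESeq2 called 255 higher and 331 lower, and the replicate block 767 higher and 784 lower. Leaving out each library gave 240 to 684 higher and 340 to 705 lower. With library totals only the share of calls that were higher was 36.7%, against 46.7% in the reported fit, and the 1q median was -0.11, with a median over all genes of -0.03. Without WT replicate 2 the lower calls were 340. The causes were not tested. The replicate block changed no call of a member. It added lower calls of PNN, EIF3E, EDC3, HNRNPA2B1, HNRNPD and TRRAP (blocked adjusted p = 0.0271). With 2 libraries per group the 95% intervals of the 8 uncalled members together ran from -0.28 to 0.32 on the log2 scale.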

Other observations

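SMG1 belongs to the PIKK kinases, which share the TTT co-chaperone that helps them fold. Of 8 such genes beside SMG1 (ATM, ATR, MTOR, PRKDC, TRRAP, TELO2, TTI1 and TTI2) 0 were called in either direction by edgeR or DESeq2. Their median log2 fold change was 0.04. Where p under 0.05 was taken without adjustment, 0 were higher and 1 lower, beside 8.39% and 8.31% of all tested genes. TRRAP, a scaffold of histone acetyltransferase complexes, had 87.6 and 83.8 CPM in KO and 95.9 and 100.7 CPM in WT (log2 fold change -0.20 ± 0.07, adjusted p = 0.0868). It passed the threshold with library totals only (adjusted p = 0.0407) and with the replicate block (blocked adjusted p = 0.0271). TELO2, a subunit of the co-chaperone, had 80.4 and 83.6 CPM in KO and 76.7 and 74.4 CPM in WT (0.12 ± 0.07, adjusted p = 0.449).

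The genes closest in pattern to SMG5, by Euclidean distance of centred log2 CPM over the 4 libraries among 9746 others with a mean of at least 10 CPM, were PHACTR2 (distance 0.0463), LRRN3 (0.0577) and MYRIP (0.0580), on chromosomes 6, 7 and 3. For UPF1 they were ZC3H8 (0.0133), ZDHHC3 (0.0134) and FBXW11 (0.0148). With 4 libraries many genes share a pattern by these distances.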
